A study of Mus musculus with 4 samples.

Results

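Imprinted genes are genes of which only the maternal or only the paternal copy is transcribed, in all or some tissues. Here 37 of them were followed by gene symbol, matched to Entrez identifiers, among the 27179 genes counted in bulk RNA sequencing of mouse liver. By textbook accounts of the mouse, 22 are expressed from the paternal copy and 14 from the maternal copy, and 1, Gnas, gives different transcripts from the 2 copies. The counts do not separate the copies, so the expressed copy is background and was not measured.

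The liver RNA came from 2 libraries of mice fasted overnight, with water freely available, and 2 libraries of mice that were fed ad libitum and are called unfasted in the sample titles and non-fasted here. All 4 are labelled as male wild-type C57BL/6 (C57BL/6J in the protocol), matched for age, with the age itself not given. Another label field lists fasting for every library, and the groups follow the titles. How many mice a group held, and which mouse gave which library, is not stated in the labels or the methods, so every p-value rests on library-to-library spread alone, and that spread may be technical.

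Most imprinted genes lie in clusters, in which a control region methylated in 1 germline sets the expression of several neighbours. In many clusters a long non-coding RNA made from 1 parental copy goes with silence of the protein-coding neighbours on that same copy. As a group, imprinted genes are known for their part in fetal and placental growth: paternally expressed members such as Igf2 tend to promote it and maternally expressed members such as Cdkn1c and Grb10 tend to restrain it. Many are switched down in mouse liver after birth.

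The fasted libraries held 13541405 and 13528015 counts, the non-fasted ones 36975921 and 36943535. Libraries of a group differed slightly more than counting error allows, with a squared deviation per gene of 1.12 (13348 genes, fasted) and 1.13 (17211 genes, non-fasted) where sampling alone gives 1, so each was kept as a separate library (chi-square p = 3.9e-21 and 3.8e-32). The spread beyond counting error, given by edgeR as a common biological coefficient of variation, was only 0.0099. With so little spread, small p-values are easily reached. All 14 hepatocyte markers were present in every library and took 13.5% and 13.6% of the fasted and 5.47% and 5.43% of the non-fasted counts. Markers of placenta were abundant in the non-fasted libraries: 19 trophoblast markers took 6.75% and 6.80% of the counts, against 6 and 8 counts in all in the fasted libraries. Of these markers, 12 were at 0 in both fasted libraries, and 18 of the 19 had at most 3 counts there. The 8 decidual stroma markers took 0.335% and 0.339% of the non-fasted and 0.0032% and 0.0031% of the fasted counts. The 8 markers of stellate cells and fibroblasts took 0.235% in both non-fasted and 0.0214% and 0.0193% in the fasted libraries. Prl8a2 and Des held most of the first non-fasted sum, and Dcn and Col3a1 most of the second. Not every marker went the same way, as Bmp2 of the first list and Lrat and Reln of the second were called higher in fasted livers by edgeR. Xist, which coats the X chromosome that female cells silence, had 2 and 1 fasted counts and 25772 and 26316 non-fasted counts, against the male label. The feeding state and these markers move together and cannot be told apart in these 4 libraries. Fewer cells of a type and less RNA per cell cannot be told apart in bulk RNA either.

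Most of the 37 genes, which were chosen with earlier results of these data known, were lower in the fasted than in the non-fasted libraries. A small set was as high or higher. Together the 37 took 0.209% (Wilson 95% interval 0.206 to 0.211%) and 0.207% (0.204 to 0.209%) of the fasted counts, against 0.647% (0.645 to 0.650%) and 0.650% (0.648 to 0.653%) of the non-fasted counts. A few genes carried much of the non-fasted sums. Igf2, H19 and Peg10 held 19.8%, 19.5% and 12.4% of the members' counts in non-fasted library 1 and 19.8%, 19.6% and 12.3% in library 2. By edgeR's quasi-likelihood test over 15470 genes, with median-of-ratios scaling and a Benjamini-Hochberg adjusted p of 0.05, 25 members were lower in fasted livers, 6 were higher, 1 did not pass and 5 had too few counts to be tested. Over all genes tested, 82.2% were called, 45% lower and 37.2% higher. Of the 32 members tested, 9 reached the filter on low counts only in the non-fasted libraries and so had to differ. They were H19, Usp29, Zim1, Dlk1, Rtl1, Mirg, Airn, Sfmbt2 and Zdbf2, and their p-values are no separate evidence of a difference. Among the other 23, 16 were lower and 6 higher, and their median log2 fold change was -1.54, beside 37.5% lower, 42.7% higher and a median of 0.07 over the 13178 genes that reached that level in both groups.

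**Figure D1:**
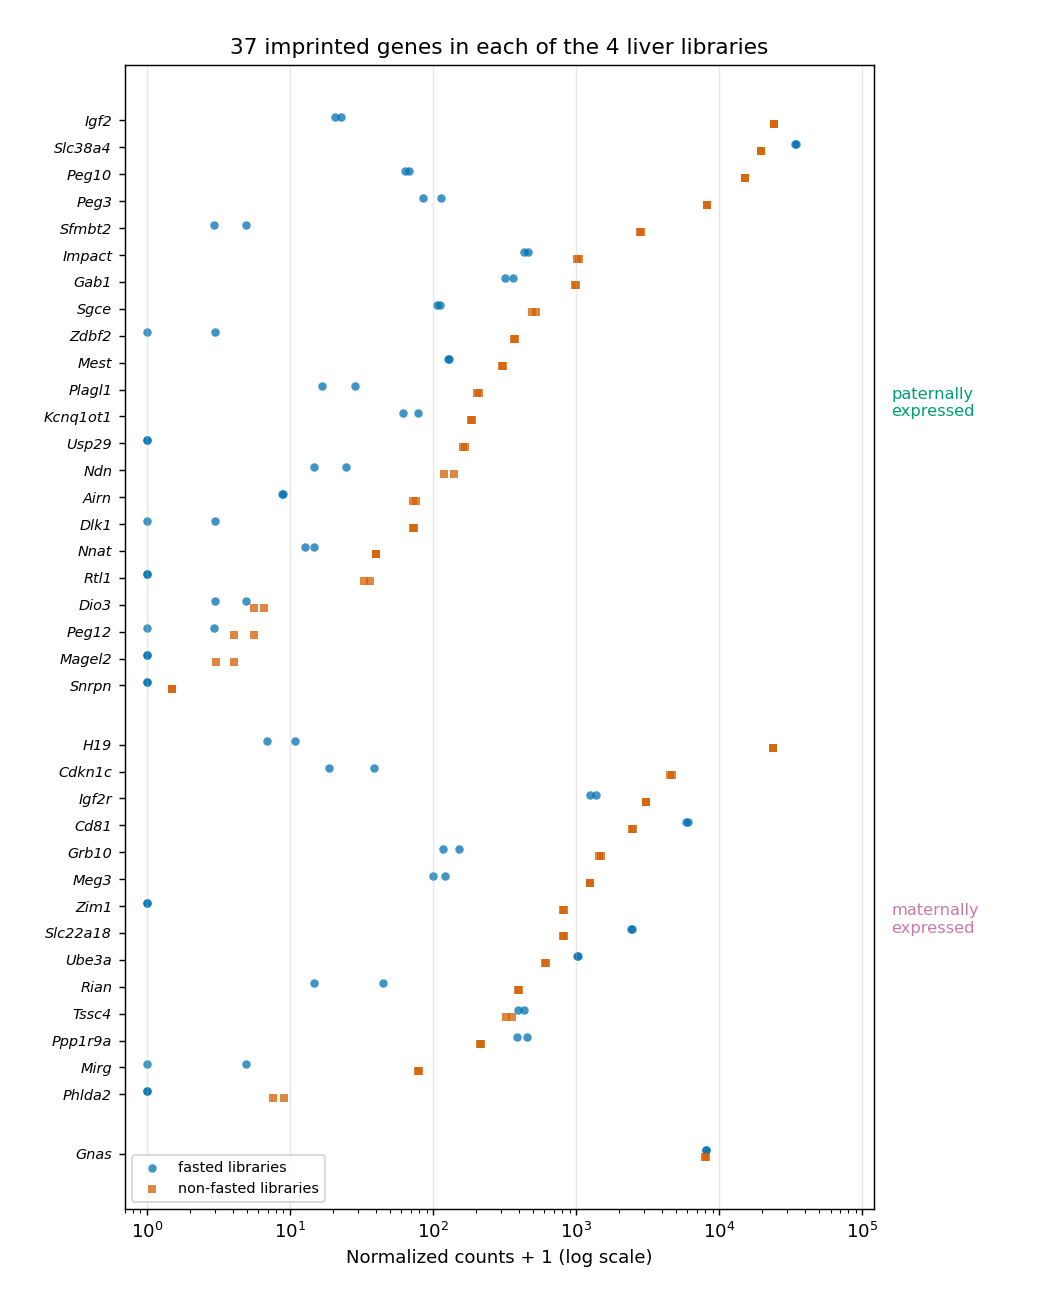
Normalized counts plus 1 (log scale) of each of the 37 imprinted genes, with 1 blue circle per fasted and 1 orange square per non-fasted library, grouped by the copy that is expressed according to textbook accounts. The libraries of the 2 groups overlap for Gnas alone. Some others separate only near 0, as does Snrpn, with no fasted count and 1 count in each non-fasted library. How many of all genes separate in this way was not counted, and 82.2% of all genes tested were called by edgeR. The separation is therefore not read as particular to these genes. Igf2 and H19 lie furthest apart among genes with over 3 fasted counts.

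Igf2 and H19, the neighbouring pair by which imprinting is best known, fell the most among members that kept more than 3 counts in the fasted libraries. Igf2 encodes the fetal growth factor IGF2 and is transcribed from the paternal copy, and H19 is a long non-coding RNA of the maternal copy. Igf2 (Entrez gene 16002) had 11 and 10 fasted counts and 47349 and 47596 non-fasted counts. H19 (Entrez gene 14955) had 3 and 5 against 46625 and 46998. Both fasted libraries were thus close to 0 for both genes, while the non-fasted libraries were high and alike. As normalized counts, Igf2 was at 20.7 ± 1.34 (SD, n = 2) when fasted and 24120.0 ± 101 (SD, n = 2) when not, a log2 fold change of -10.18 (standard error 0.049, edgeR adjusted p = 1.9e-14). H19 was at 7.88 ± 2.80 and 23784 ± 146, a log2 fold change of -11.54 (standard error 0.066, edgeR adjusted p = 5.4e-14). H19 reached the filter on low counts only in the non-fasted libraries, so its p-value is no separate evidence of a difference. In the non-fasted libraries Igf2 had 1.02 and 1.01 counts for each count of H19, whereas in the fasted libraries this ratio, 3.67 and 2.00, rests on 14 and 15 counts in all.

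Igf2 has several promoters, and RefSeq (GRCm38.p6) gives 4 starts for it. The windows of 300 bases around starts 2 and 3, in the order of that annotation, are shown because they hold far more CpG dinucleotides, the sites of DNA methylation, than the others, with 14 and 24 against 2 and 7. Capitals mark the hexamer TGCCGC or its reverse complement GCGGCA, the core site of ZFP57, a zinc finger protein that binds it when methylated and protects imprints. All windows run from 250 bases before to 50 after the start, written 5′ to 3′ on the strand of the gene. Start 2 has its window at chr7:142661222-142661521 and start 3 at chr7:142658755-142659054, both on the minus strand.
Igf2, start 2: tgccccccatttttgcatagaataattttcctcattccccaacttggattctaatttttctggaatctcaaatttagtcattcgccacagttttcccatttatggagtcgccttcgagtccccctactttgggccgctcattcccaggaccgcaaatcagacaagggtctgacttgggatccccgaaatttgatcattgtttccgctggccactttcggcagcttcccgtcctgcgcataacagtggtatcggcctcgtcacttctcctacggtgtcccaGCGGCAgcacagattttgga
Igf2, start 3: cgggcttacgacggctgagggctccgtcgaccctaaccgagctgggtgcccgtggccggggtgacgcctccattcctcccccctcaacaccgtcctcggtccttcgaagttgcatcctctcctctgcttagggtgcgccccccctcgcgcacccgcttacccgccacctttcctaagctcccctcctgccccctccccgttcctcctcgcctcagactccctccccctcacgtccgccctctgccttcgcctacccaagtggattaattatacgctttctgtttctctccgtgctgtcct
The counts are per gene and do not say which start was used.

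The cluster that follows Igf2 along the chromosome, controlled by the long non-coding RNA Kcnq1ot1 of the paternal copy, was split. Cdkn1c, a maternally expressed inhibitor of cyclin-dependent kinases that restrains growth, had 9 and 19 fasted counts and 8982 and 9231 non-fasted counts. Its normalized counts were 27.6 ± 14 (SD, n = 2) and 4627 ± 91.8 (SD, n = 2), a log2 fold change of -7.39 (standard error 0.114, edgeR adjusted p = 3.2e-11), which was -7.99 without fasted library 2. Kcnq1ot1 itself had 31 and 39 counts against 360 and 367, a log2 fold change of -1.42 (standard error 0.147, edgeR adjusted p = 1.9e-05). For each count of Cdkn1c there were 0.0401 and 0.0398 counts of Kcnq1ot1 in the non-fasted libraries. In the fasted libraries, where both genes were low, there were 3.44 and 2.05. Phlda2, a maternally expressed gene that limits placental growth, had no fasted count and only 13 and 16 non-fasted counts. It was too low to be tested, and its normalized level in non-fasted livers was at least 2.50-fold higher, set against a floor of 3 counts over the fasted group.

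The other 3 members of that cluster were higher in fasted livers. Of these, Slc22a18 lies next to Cdkn1c, which fell. Cd81 and Tssc4 have no gene called lower next to them among the imprinted genes listed for this region. Slc22a18, a maternally expressed organic cation transporter, had 1253 and 1219 fasted counts and 1584 and 1616 non-fasted counts. Scaled, these were 2433 ± 40.8 (SD, n = 2) and 813 ± 11.9 (SD, n = 2) normalized counts, a log2 fold change of 1.58 (standard error 0.034, edgeR adjusted p = 2.8e-10). Cd81, a tetraspanin of the cell surface that many cell types make, had 3002 and 3050 against 4857 and 4904 counts, a log2 fold change of 1.26 (standard error 0.028, edgeR adjusted p = 3.2e-10). Tssc4, a factor of spliceosome assembly, was nearly level. It had 218 and 199 against 701 and 636 counts, a log2 fold change of 0.27 (standard error 0.085, edgeR adjusted p = 0.015). DESeq2 did not call it, and edgeR no longer did when either fasted library (0.24 without library 1 and 0.37 without library 2) or the second non-fasted one (0.20) was left out.

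These rises depend on the scaling. The 14 hepatocyte markers were themselves higher in the fasted libraries, by log2 fold changes from 1.61 to 2.27, and every one of the 6 members called higher lay below that range. With the hepatocyte markers set equal between the groups, an alternative that shifts the median of all genes by -1.77 on the log2 scale, Slc22a18 was at -0.19, Cd81 at -0.51 and Tssc4 at -1.50. Under that scaling all 32 members tested were lower in fasted livers and 0 were higher, by edgeR at an adjusted p of 0.05 (715 genes were higher and 13949 lower over the whole table). Scaling to total counts, with a shift of -0.50, left 5 members higher and 27 lower.

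**Figure D2:**
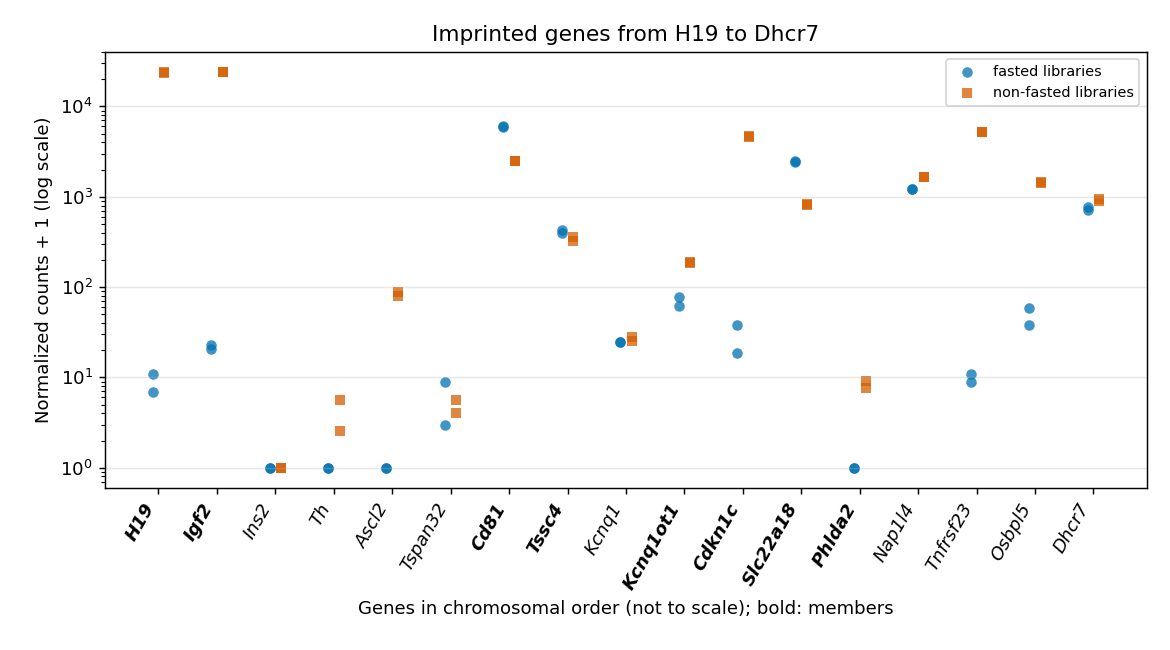
Normalized counts plus 1 (log scale) of 17 imprinted genes in chromosomal order from H19 to Dhcr7, with the 8 genes of the list in bold, blue circles for fasted and orange squares for non-fasted libraries. Neighbours differ in direction: Cdkn1c lies between Kcnq1ot1 and Slc22a18, with 9 and 19 fasted counts, while Slc22a18 and Cd81 are higher in the fasted libraries.

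In chromosomal order from H19 to Dhcr7, 17 imprinted genes of this region were listed, 9 of which are not among the 37. Of the 17, 9 were lower and 3 higher in fasted livers, Kcnq1 did not pass the test at -0.12 (edgeR adjusted p = 0.73), and 4 were not tested, beside 45% lower and 37.2% higher over all genes tested. Of those called lower, H19, Ascl2 and Tnfrsf23 reached the filter on low counts only in the non-fasted libraries and so had to differ. Over all genes that reached that level in both groups, 37.5% were lower and 42.7% higher. Ascl2, a maternally expressed transcription factor of the spongiotrophoblast, had no fasted count and 154 and 171 non-fasted counts. Tnfrsf23, a decoy receptor for the death ligand TRAIL, had 4 and 5 against 10273 and 10258 counts. Tnfrsf23 lies between Nap1l4, a histone chaperone at -0.44, and Osbpl5, an oxysterol-binding protein relative at -4.93. Both neighbours of Ascl2 in this list, Th and Tspan32, were too low to be tested.

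Peg3, Usp29 and Zim1, which share 1 cluster, were all lower in fasted livers. Peg3 encodes a large zinc finger protein of the paternal copy known for its part in maternal care and placental growth, and Usp29 a ubiquitin-specific protease, read in the opposite direction from a start next to that of Peg3. Zim1 encodes a zinc finger protein of the maternal copy. Peg3 had 43 and 57 fasted counts and 16106 and 16066 non-fasted counts, as normalized counts 98.4 ± 19.7 (SD, n = 2) and 8173 ± 10.2 (SD, n = 2), a log2 fold change of -6.37 (standard error 0.068, edgeR adjusted p = 3.9e-12). Usp29 and Zim1 had no count in either fasted library. In the non-fasted libraries Usp29 had 328 and 319 counts, at least 55.7-fold higher after scaling, and Zim1 had 1624 and 1587, at least 276-fold higher (edgeR adjusted p = 7.5e-07 and 1.8e-09). Usp29 and Zim1 reached the filter on low counts only in those libraries, so these p-values are no separate evidence of a difference. Peg3 had 9.92 and 10.1 counts for each count of Zim1 in the non-fasted libraries.
The windows of Peg3 and Usp29 overlap by 263 of their 300 bases on opposite strands, and the one of Peg3, at chr7:6730370-6730669 on the minus strand in GRCm38.p6, is shown for this shared start.
Peg3: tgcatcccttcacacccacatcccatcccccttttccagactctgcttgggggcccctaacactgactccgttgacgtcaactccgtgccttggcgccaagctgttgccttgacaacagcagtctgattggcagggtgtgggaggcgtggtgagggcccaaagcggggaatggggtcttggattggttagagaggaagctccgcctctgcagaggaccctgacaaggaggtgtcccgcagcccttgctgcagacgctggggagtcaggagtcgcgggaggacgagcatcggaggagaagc
It holds 13 CpG dinucleotides and no ZFP57 hexamer.

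The cluster of Peg10 held both falls and a rise. Peg10, a paternally expressed gene derived from a retrotransposon and needed for the placenta to form, had 34 and 32 fasted counts and 29720 and 29587 non-fasted counts. This is 64.9 ± 2.61 (SD, n = 2) against 15066 ± 40.1 (SD, n = 2) normalized counts and a log2 fold change of -7.86 (standard error 0.053, edgeR adjusted p = 1.7e-13). Sgce, the sarcoglycan epsilon gene that starts next to Peg10 and is paternally expressed too, had 54 and 56 against 962 and 1037 counts, a log2 fold change of -2.23 (standard error 0.106, edgeR adjusted p = 7.2e-08). The ratio of Peg10 to Sgce counts was 30.9 and 28.5 in the non-fasted and 0.630 and 0.571 in the fasted libraries. Ppp1r9a, a maternally expressed actin-binding protein of the same cluster, had 231 and 196 against 421 and 419 counts. It was higher in fasted livers, at 420 ± 47.6 (SD, n = 2) against 213 ± 0.61 (SD, n = 2) normalized counts (log2 fold change 0.98, standard error 0.090, edgeR adjusted p = 8.3e-06), and at -0.79 with the hepatocyte markers set equal.

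In the cluster from Dlk1 to Dio3, the maternally expressed long non-coding RNAs were the more abundant members by count. Meg3 had 61 and 50 fasted counts and 2441 and 2449 non-fasted counts, a log2 fold change of -3.51 (standard error 0.076, edgeR adjusted p = 2.7e-10). Rian, a host of small nucleolar RNAs, had 7 and 22 against 788 and 770, a log2 fold change of -3.79 (standard error 0.215, edgeR adjusted p = 2.6e-07). Its fasted libraries differed, and the value was -3.15 without fasted library 1 and -4.81 without fasted library 2. Mirg, a microRNA host, had 2 and 0 against 154 and 153, which is 39.6-fold after scaling with an exact counting interval of 10.9 to 329. All 3 were low in both fasted libraries. The protein-coding members of the paternal copy were low in both groups. Dlk1, a ligand-like transmembrane protein of the Notch family that restrains differentiation, had 0 and 1 against 144 and 140 counts (73.3-fold, interval 13.1 to 2906). Rtl1, a retrotransposon-derived gene of placental capillaries, had none against 69 and 63 (at least 11.4-fold), and Dio3, the deiodinase that inactivates thyroid hormone, had 2 and 1 against 9 and 11 (1.72-fold, interval 0.510 to 9.04). Dlk1, Rtl1 and Mirg passed the edgeR test as lower in fasted livers (adjusted p = 7.0e-06, 8.9e-05 and 1.1e-05), and Dio3 was not tested. Those that passed reached the filter on low counts only in the non-fasted libraries, so their p-values are no separate evidence of a difference. Dlk1 had 0.0590 and 0.0572 counts for each count of Meg3 in the non-fasted libraries.

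Members of the Snrpn to Ube3a cluster, which is tied to the Prader-Willi and Angelman syndromes in people and is most active in brain, were mostly near 0 in all libraries. Snrpn had no count in the fasted and 1 in each non-fasted library, below the floor of 3 counts over each group. It shares its transcript with Snurf, which is listed as a gene of its own and had no count in any library, and how reads on both genes were treated is not given in the sources used here. Magel2 had no fasted count and 4 and 6 non-fasted counts, and Peg12 had 1 and 0 against 9 and 6. None of the 3 was tested. Ndn, a paternally expressed gene that restrains growth of neurons, was detected with 12 and 7 against 231 and 274 counts, a log2 fold change of -2.77 (standard error 0.287, edgeR adjusted p = 1.9e-05). Ube3a, a ubiquitin ligase imprinted only in neurons, went the other way. It had 527 and 512 against 1187 and 1212 counts, 1022 ± 18.1 (SD, n = 2) against 609 ± 9.29 (SD, n = 2) normalized counts, and a log2 fold change of 0.75 (standard error 0.044, edgeR adjusted p = 3.3e-07), which became -1.02 with the hepatocyte markers set equal.

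Igf2r and its antisense RNA Airn fell together but unequally. Igf2r, the maternally expressed receptor that removes IGF2 and carries lysosomal enzymes, kept 637 and 701 fasted counts and 6094 and 6006 non-fasted counts. As normalized counts this was 1317 ± 92.6 (SD, n = 2) and 3074 ± 30.1 (SD, n = 2), a log2 fold change of -1.22 (standard error 0.044, edgeR adjusted p = 9.4e-09). Airn, the paternally expressed RNA whose transcription silences Igf2r on the same copy, had 4 and 4 against 147 and 141 counts, a log2 fold change of -3.20 (standard error 0.315, edgeR adjusted p = 1.3e-05). Airn reached the filter on low counts only in the non-fasted libraries, so its p-value is no separate evidence of a difference. The ratio of Airn to Igf2r counts was 0.0063 and 0.0057 in the fasted libraries, against 0.0241 and 0.0235 in the non-fasted ones. The strand setting of the counting is not given in the sources used here, so reads of these overlapping genes cannot be told apart, as also for Kcnq1ot1 and Kcnq1.

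Of the members outside these clusters, Slc38a4 and Gnas stayed abundant in fasted livers. Slc38a4, a sodium-coupled amino acid transporter that hepatocytes express strongly, had 17502 and 17151 counts in the fasted libraries, which is 61.9% and 61.3% of all counts of the 37 genes there, and 38612 and 38455 in the non-fasted libraries (16.1% and 16.0%). It was at 34101 ± 397 (SD, n = 2) against 19578 ± 46.5 (SD, n = 2) normalized counts, a log2 fold change of 0.80 (standard error 0.0083, edgeR adjusted p = 3.1e-12), and at -0.97 with the hepatocyte markers set equal. It was the only paternally expressed member called higher. Gnas, which encodes the stimulatory G protein subunit and imprinted variants of it, had 4103 and 4067 against 15627 and 15890 counts. Its normalized counts were 8040.0 ± 28.5 (SD, n = 2) and 8007 ± 98.5 (SD, n = 2), a log2 fold change of 0.01 (standard error 0.026, edgeR adjusted p = 0.83), and the libraries of the groups overlapped. With total counts Gnas was at -0.50 and lower in fasted livers (edgeR adjusted p = 1.1e-07).
The window at the outermost start of Slc38a4, at chr15:97055907-97056206 on the minus strand in GRCm38.p6, is shown because this member stayed abundant in fasted livers.
Slc38a4: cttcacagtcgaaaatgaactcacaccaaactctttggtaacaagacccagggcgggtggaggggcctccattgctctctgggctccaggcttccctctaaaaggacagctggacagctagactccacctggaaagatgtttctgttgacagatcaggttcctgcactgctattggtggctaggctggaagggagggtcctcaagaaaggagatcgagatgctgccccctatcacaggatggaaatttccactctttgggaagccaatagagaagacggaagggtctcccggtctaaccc
It holds 5 CpG dinucleotides and no ZFP57 hexamer, as do the other 2 windows of the gene. This does not set it apart from members that fell. Windows of members called lower held 0 to 45 CpG dinucleotides, and windows of members called higher 2 to 48.

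Sfmbt2 and Zdbf2, both paternally expressed, were near 0 in the fasted libraries. Sfmbt2, a Polycomb protein needed to maintain trophoblast, had 1 and 2 fasted counts and 5533 and 5568 non-fasted counts, a 955-fold difference after scaling with an exact counting interval of 327 to 4633 (edgeR adjusted p = 1.2e-11). Zdbf2, a zinc finger gene known for its part in the growth of young mice, had 0 and 1 against 724 and 732, a 376-fold difference with an interval of 67.4 to 14856 (edgeR adjusted p = 8.4e-09). Both genes reached the filter on low counts only in the non-fasted libraries, so these p-values are no separate evidence of a difference. Grb10, an adaptor that restrains insulin and growth factor signalling and is maternally expressed outside the brain, had 59 and 76 against 2926 and 2862 counts, at 133 ± 24.0 (SD, n = 2) and 1470.4 ± 22.2 (SD, n = 2) normalized counts (log2 fold change -3.47, standard error 0.080, edgeR adjusted p = 4.1e-10). Plagl1, a zinc finger transcription factor of the imprinted gene network, had 14 and 8 against 408 and 400, a log2 fold change of -3.24 (standard error 0.205, edgeR adjusted p = 5.6e-07).
The differences of the remaining 4 were between -1.60 and -1.20 on the log2 scale. Mest, a paternally expressed hydrolase-like protein of mesoderm, had 65 and 64 against 602 and 594 counts (log2 fold change -1.26). Nnat, a small membrane protein of the endoplasmic reticulum, had 6 and 7 against 77 and 76 (-1.60). Impact, an inhibitor of the amino acid sensor GCN2, had 234 and 219 against 1988 and 2051 (-1.20), and Gab1, a docking protein of receptor tyrosine kinases imprinted in placenta only, 162 and 182 against 1957 and 1928 (-1.54). All 4 passed the edgeR test as lower in fasted livers, with adjusted p from 1.8e-08 for Gab1 to 0.0011 for Nnat.
The windows of Mest at its start 2, at chr6:30737800-30738099, and of Zdbf2 at its start 1, at chr1:63200108-63200407, both on the plus strand in GRCm38.p6, are shown because they hold the most ZFP57 hexamers among the members, 2 and 3.
Mest, start 2: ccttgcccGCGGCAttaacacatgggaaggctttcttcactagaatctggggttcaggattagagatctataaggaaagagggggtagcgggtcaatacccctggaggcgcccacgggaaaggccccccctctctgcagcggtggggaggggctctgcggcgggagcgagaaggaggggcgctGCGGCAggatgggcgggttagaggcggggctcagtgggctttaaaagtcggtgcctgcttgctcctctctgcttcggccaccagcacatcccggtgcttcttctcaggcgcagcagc
Zdbf2, start 1: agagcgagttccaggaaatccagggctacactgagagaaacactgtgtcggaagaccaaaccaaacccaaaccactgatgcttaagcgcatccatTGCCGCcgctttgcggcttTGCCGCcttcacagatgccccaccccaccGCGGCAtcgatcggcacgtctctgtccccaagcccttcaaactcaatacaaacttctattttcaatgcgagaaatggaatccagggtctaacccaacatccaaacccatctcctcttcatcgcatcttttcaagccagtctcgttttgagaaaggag

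**Figure D3:**
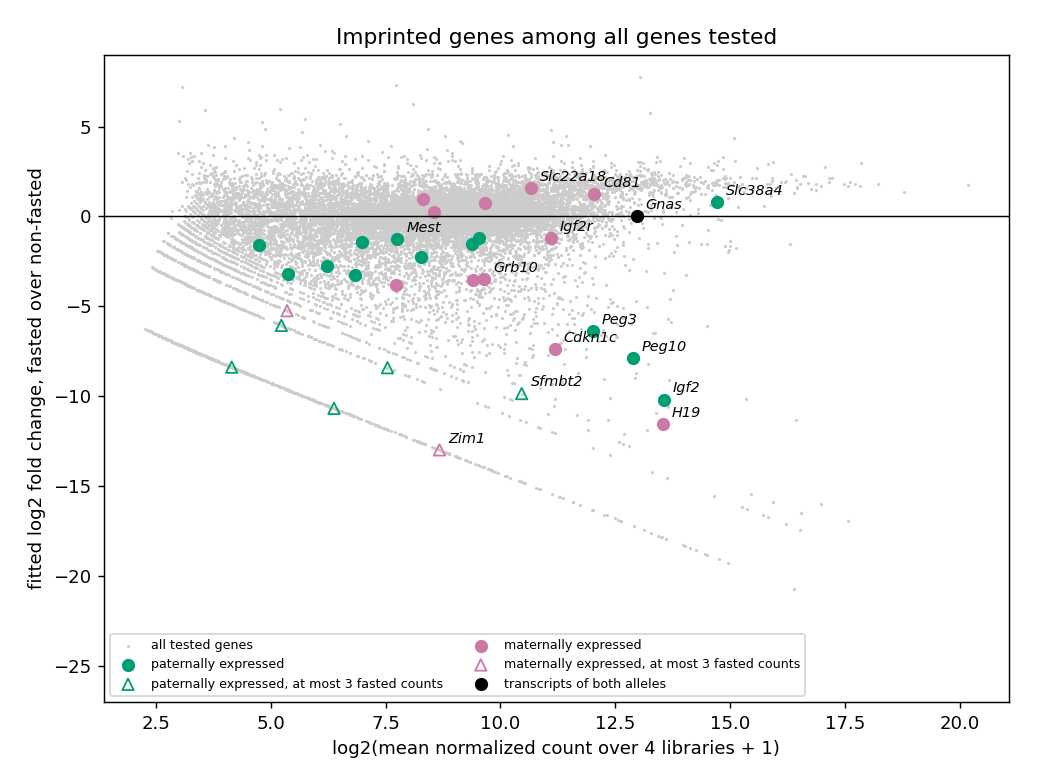
Fitted log2 fold change, fasted over non-fasted, against the log2 of the mean normalized count plus 1, for all 15470 tested genes (grey) and the imprinted genes tested, coloured by expressed copy. Triangles are genes with at most 3 counts over both fasted libraries, whose fitted fold changes depend on the prior count and are no bounds. Igf2, H19 and Peg10 lie far below most genes of like abundance, and Slc38a4 and Gnas do not.

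Of the 37 members, 12 were silent in the fasted livers, here meaning at most 3 counts over both libraries. They were Phlda2, Usp29, Zim1, Dlk1, Rtl1, Dio3, Mirg, Snrpn, Magel2, Peg12, Sfmbt2 and Zdbf2, and 6 of them had no count at all. In the non-fasted libraries these genes ranged from 1 count in each for Snrpn to 5533 and 5568 for Sfmbt2, and 3 of them (Zim1, Sfmbt2 and Zdbf2) had over 300 normalized counts. Lower levels in the fasted livers were not detectable at this depth. Among the 15470 genes tested, 9.72% were as low in the fasted libraries, beside 7 of the 32 members tested. Genes this low could enter the test only through the non-fasted libraries. Of all 27179 genes counted, only 16144 and 16123 had any count in the fasted libraries, so low counts were common there. The share of all genes with at most 3 fasted counts was not computed, so the 12 silent members are not read as an excess.

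By expressed copy, most of the members called higher were maternally expressed. Of the 22 paternally expressed members, 17 were lower in fasted livers, 1 was higher and 4 were not tested, with 9 silent in the fasted libraries. Of the 14 maternally expressed members, 8 were lower, 5 were higher and 1 was not tested, with 3 silent. Over all genes tested, 45% were lower and 37.2% higher. Among members that reached the filter level in both groups, 11 of 12 paternally expressed members were lower (median log2 fold change -1.91). Of the 10 maternally expressed ones, 5 were lower and 5 higher (median -0.48). Over all such genes 37.5% were lower and 42.7% higher, so the share of maternally expressed members called higher was near that of all genes. The 5 maternally expressed members that were higher (Slc22a18, Cd81, Tssc4, Ppp1r9a and Ube3a) include genes whose imprinting is limited to placenta or neurons by textbook accounts. The difference between the 2 classes was not tested, and with the hepatocyte markers set equal 0 members of either class were higher. Summed over each class, paternally expressed members took 0.134% and 0.132% of the fasted counts and 0.393% and 0.394% of the non-fasted counts, and maternally expressed members 0.0444% and 0.0447% against 0.212% and 0.213%.

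**Figure D4:**
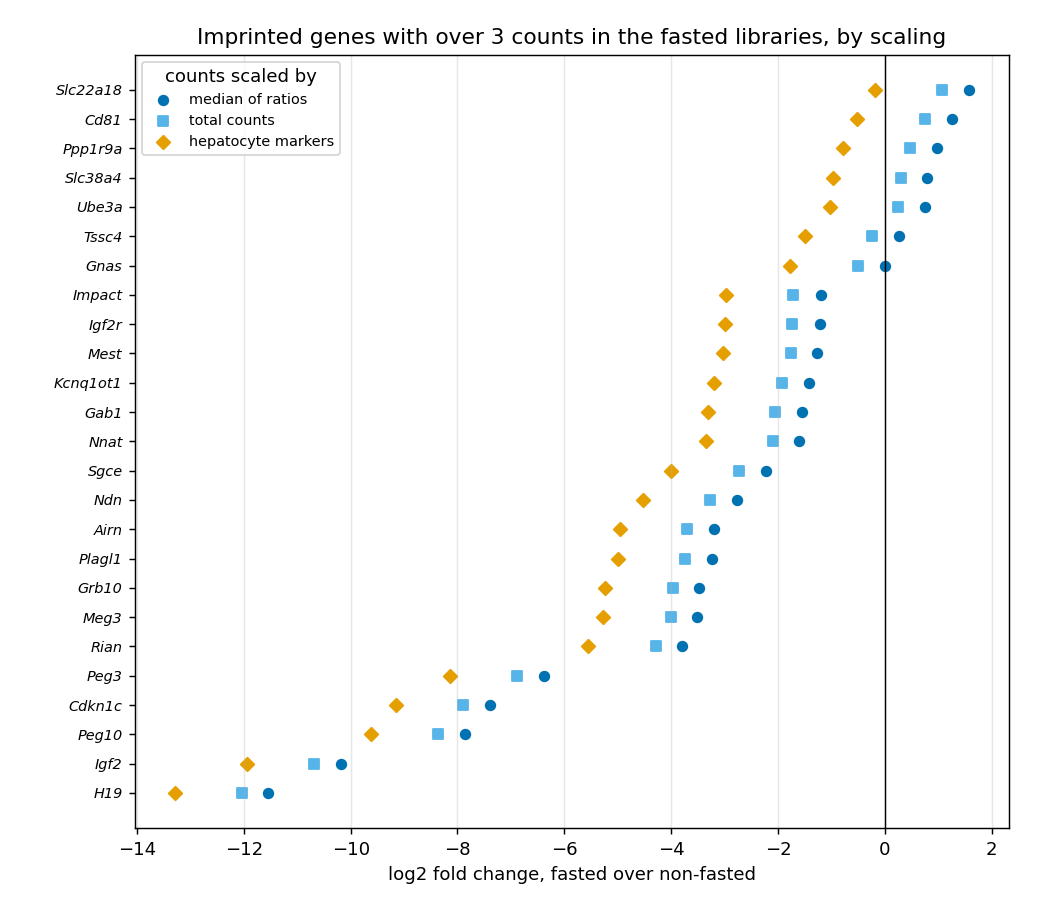
Log2 fold change (positive: higher when fasted) of the 25 imprinted genes with over 3 counts in the fasted libraries, with counts scaled by median of ratios (dark blue circles), total counts (light blue squares) or the 14 hepatocyte markers (yellow diamonds). The 6 genes at the top lie above 0 by median of ratios and below 0 by hepatocyte markers, and every gene from Impact down lies below 0 under all 3.

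Per length, the order of the members changed between the groups. Levels are given as counts per kilobase of annotated exon, scaled to library totals (RPKM), for the 34 members with a length in GENCODE M21 (all but Kcnq1ot1, Rian and Airn). In fasted livers Slc38a4 was highest at 300.4 (298 and 303 in the 2 libraries), followed by Cd81 at 77.7, Slc22a18 at 53.7, Gnas at 27.0 and Tssc4 at 8.35. Igf2 and H19 came 20th and 21st, at 0.136 and 0.120, and did not differ beyond the spread of their libraries. In non-fasted livers H19 was first at 515, ahead of Slc38a4 at 245, Igf2 at 224, Cdkn1c at 121 and Peg10 at 120.3. Cdkn1c and Peg10 overlapped between libraries, as did Gab1 and Tssc4 and Ube3a and Zdbf2, while the other neighbours in the non-fasted order did not. In the fasted order 13 of 27 neighbouring pairs overlapped, all of them from Grb10 at 0.549 downwards.

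Promoter windows were found in RefSeq for 31 of the 37 members, with 50 windows in all, some of which overlap. H19, Cdkn1c, Peg10, Sgce, Rtl1 and Impact had none. The hexamer TGCCGC, on either strand, was present in 10 of the 50 windows (20%) and in 14.1% of the 22271 windows of genes in the files. Of the 29 windows of 19 members called lower, 9 held it, and of the 9 windows of 6 members called higher, 0 did. The windows at Mest starts 2 and 3 overlap and hold the same sites. The windows are few, and the difference was not tested. The median number of CpG dinucleotides was 13.5 in the members' windows and 13 in all windows, from 0 in Rian to 48 in Ppp1r9a. These are descriptions of sequence near annotated starts, and methylation was not measured.

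Of 35 further genes listed as imprinted in the mouse, 10 were higher and 15 lower in fasted livers, 2 did not pass the test and 8 were not tested, beside 45% lower and 37.2% higher over all genes. Of those tested, 5 reached the filter on low counts only in the non-fasted libraries and so had to differ. Among the 22 that reached it in both groups, 10 were higher and 10 lower, with a median of -0.08 on the log2 scale, beside 42.7% higher and 37.5% lower over all such genes. The largest falls of the list were those of Rasgrf1, a guanine nucleotide exchange factor with no fasted count and 183 and 208 non-fasted counts, of Ascl2 and of Tnfrsf23. All of these are among the 5 that reached the filter only in the non-fasted libraries. Dcn, which encodes the matrix proteoglycan decorin and is also among the fibroblast markers, was the most abundant, with 1693 and 1552 against 60425 and 60435 counts (log2 fold change -3.27, standard error 0.012, edgeR adjusted p = 3.4e-15). The largest rises were those of Pon3, a lactonase of liver and serum, at 1.27, of the phosphatase Inpp5f at 1.15 and of Commd1, a copper-handling protein, at 1.14. With the hepatocyte markers set equal 0 of them were higher and 27 lower.

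Among 17 regulators of imprints, 4 were higher, 9 were lower, 3 did not pass the test and 1 was not tested, beside 37.2% higher and 45% lower over all genes. Of the regulators tested, 4, among them Zfp57, Uhrf1 and Dnmt3l, reached the filter level only in the non-fasted libraries and so had to differ. Zfp57 itself had 3 and 2 fasted counts and 456 and 450 non-fasted counts, a log2 fold change of -5.52 (standard error 0.249, edgeR adjusted p = 5.0e-08). Zfp445, which has a related role in protecting imprints, was the most abundant of the list and went the other way, with 2418 and 2370 against 4663 and 4698 counts (log2 fold change 0.99, standard error 0.028, edgeR adjusted p = 1.9e-09). Dnmt3l, a cofactor of the methyltransferases that set imprints in the germline, had none against 30 and 25, and Uhrf1, which brings the maintenance methyltransferase to newly copied DNA, had 1 and 4 against 75 and 84 (-3.01). Setdb1, a histone methyltransferase that works with ZFP57, was at 0.53 and Tet2, an enzyme of DNA demethylation, at 0.40. Without fasted library 1, 2 regulators were higher in place of 4. With total counts 1 was higher and 12 lower, and with the hepatocyte markers set equal 0 were higher and 16 lower.

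Of 14 genes listed for IGF ligands, receptors and their substrates, binding proteins and messenger RNA binders, 6 were higher and 8 lower in fasted livers, shares near the 37.2% and 45% of all genes tested. Igf1, the growth factor that liver secretes after birth, had 11013 and 11222 fasted counts and 8151 and 7899 non-fasted counts, a log2 fold change of 2.42 (standard error 0.029, edgeR adjusted p = 7.4e-12), opposite to Igf2. The binding proteins Igfbp2 and Igfbp4 rose by 2.38 and 2.16 on the same scale. Igf2bp1, Igf2bp2 and Igf2bp3, fetal proteins that bind Igf2 messenger RNA, had 0 and 0, 10 and 9, and 3 and 7 counts in the fasted libraries. In the non-fasted libraries they had 1115 and 1168, 1038 and 1048, and 547 and 627, and all 3 were called lower in fasted livers by edgeR (adjusted p = 9.4e-09, 1.4e-09 and 2.7e-07). Of these 3, Igf2bp1 reached the filter level only in the non-fasted libraries and so had to differ. With the hepatocyte markers set equal, 3 of the 14 were higher and 9 lower.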

How the data were processed

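The authors deposited raw counts per gene by Entrez identifier, 1 file per library, with no normalization. Tools listed in the submitters' processing notes are DESeq2 1.32.0, STAR, Trimmomatic, featureCounts, MultiQC and FastQC, with build GRCm39 (mm39). Neither strand setting nor multi-mapping reads are described there. Symbols came from RefSeq GRCm38.p6, which named all but 1904 identifiers.

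Counts were filtered with filterByExpr (minimum count 10), scaled by median of ratios over the tested genes and tested with edgeR 4.0.16 (glmQLFTest, two-sided) in R 4.3.3, with Benjamini-Hochberg adjustment over all 15470 genes. Standard errors were back-calculated from fold change and F statistic. limma 3.58.1 and DESeq2 1.42.0 served as alternatives. Normalized counts are counts divided by the same size factors, with SD over 2 libraries. Intervals of shares are Wilson 95% intervals, and intervals of folds with 1 to 3 fasted counts are exact conditional intervals. Both cover counting error only. The test was also tested on simulated data. Figures were drawn with matplotlib 3.10.9.

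The members and lists were chosen with earlier results of these data known. All 37 members are named. From other lists the 3 largest rises and falls among called genes and the most abundant gene are named. Snurf, Xist, Kcnq1, Nap1l4, Osbpl5, Th, Tspan32 and the promoter windows shown were chosen after their values were seen.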

Additional observations from a re-analysis of the deposited data

How the results depend on the processing

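All 15 alternatives kept the 25 members called lower within 1.5 times that count. By edgeR with the hepatocyte markers set equal, the members higher in fasted livers went from 6 to 0 (paternally expressed from 1 to 0, maternally expressed from 5 to 0, other imprinted genes from 10 to 0, regulators from 4 to 0), while lower ones went from 8 to 13 among maternally expressed members, from 15 to 27 among other imprinted genes and from 9 to 16 among regulators. There Slc22a18, Tssc4, Cd81, Ppp1r9a, Ube3a, Slc38a4 and Gnas turned to -0.19, -1.50, -0.51, -0.79, -1.02, -0.97 and -1.77. With a minimum fold of 2, edgeR called 2 members higher (0 paternally and 2 maternally expressed), 3 other imprinted genes and 0 regulators higher, and 9 other imprinted genes lower. With total counts 5 other imprinted genes and 1 regulator were higher, Tssc4 was at -0.23 and Gnas at -0.50, and with upper quartile scaling 7 regulators were higher and Gnas was called higher at 0.12. Gnas was at -0.02 without the filter on low counts and between -0.02 (without non-fasted library 1) and 0.04 (without either fasted library) when 1 library was left out, and Tssc4 missed the threshold without the filter. Leaving out each library gave 2 to 4 higher regulators, 5 or 6 higher members and 25 or 26 lower members. Fitted log2 values that rest on 1 or 2 fasted counts moved the most when fasted library 1 or 2 was left out, to -5.10 and -9.74 for Dlk1, -9.85 and -4.25 for Mirg and -7.46 and -12.09 for Zdbf2, all still called lower. DESeq2 lost the call of Tssc4 alone among members, and limma-voom, TMM scaling, thinning to equal totals and the exactly computed deviance changed no member's call.

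The replicate numbers are not said to pair the libraries, and same-numbered libraries did not deviate together (correlation -0.0053 across genes). With the replicate number as a block, 6 members were higher and 25 lower, and 5 regulators were higher. Groups of 2 libraries and few fasted counts limit precision for the silent members, and feeding state, depth and placental RNA move together.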

Other observations

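Igf2os, an RNA read in the opposite direction at Igf2 and chosen after its values were seen, had 0 and 1 fasted counts and 370 and 361 non-fasted counts. The strand setting of the counting is not known, so its reads cannot be told apart from those of Igf2.

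Of the other marker lists, 5 of 6 markers of Kupffer cells and macrophages were higher in the fasted libraries by the edgeR test and 1 was lower. Among 8 endothelial markers 3 were higher and 5 lower, beside 37.2% higher and 45% lower over all genes tested. By the same test with the hepatocyte markers set equal, 4 of the 6 were higher and 1 lower, and 1 of the 8 was higher and 7 lower. All 5 cholangiocyte markers were lower. Of 4 markers of embryonic erythroid cells and yolk sac, 3 had no count in the fasted libraries, 2 were lower and 2 were not tested.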
